A study of Mus musculus with 16 samples.

Results

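The genes described here encode the secreted and membrane-bound ligands and the receptors of the semaphorin, ephrin, Slit and netrin guidance systems. They were chosen by symbol alone, as every gene of the semaphorin, plexin, ephrin-A and -B, Eph receptor, Slit, Robo, Unc5, netrin and Flrt families listed under its own name in the deposited count tables, so that no measured value enters the rule, although the set was taken up with earlier results of these data known. The rule found 67 genes of 30385 entries, of which 57 had enough reads to be tested. They were followed by poly(A) RNA sequencing in 2 immortalized mouse epicardial cell lines, each isolated at E11.5 from Immorto mice on a mixed C57BL/6 SV129 background. One line carried intact Tgfbr3 (Tgfbr3+/+, called wt here), and the other lacked it (Tgfbr3-/-, called mt). Both lines were expanded with ITS at 33 °C and with INFγ, conditions that keep the immortalizing transgene active, and were moved to 37 °C for the experiment. Each line received vehicle (VEH), 250 pM TGFB1, 250 pM TGFB2 or 5 nM BMP2 for 72 h, with 2 libraries in each of the 8 groups. Each genotype is represented by a single line, so genotype and line cannot be told apart.

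Tgfbr3, the type III TGFβ receptor and the targeted gene, lay at 71 and 100.3 CPM (read counts scaled to library size) in the wt vehicle libraries and at 14.6 and 18.2 CPM in the mt vehicle libraries. The log2 difference between the lines was -2.39 ± 0.32 (SE), with an adjusted p of 0.0019. Library totals ran from 6410320 to 31813921 reads. All 16 genes of a list of epicardial and mesothelial markers averaged over 1 CPM, Sema3d among them, while the endothelial markers Pecam1 and Cdh5, the neural crest marker Sox10 and the leukocyte marker Ptprc stayed at or under 1.36 CPM in every library. Summed over its list, the level ran from 31.5 to 96.2 CPM for endothelial, from 93.3 to 200.2 CPM for glial and neural crest and from 10.4 to 35.8 CPM for blood and macrophage markers. Kdr, at up to 62.3 CPM, Tek, Egfl7 and Flt1 made up most of the first sum, Mbp, at up to 190.0 CPM, most of the second and Cd68, at up to 34.9 CPM, most of the third. The sum of 15 cardiomyocyte markers, most of it Tnnt2 in every library but mt VEH replicate 1, ran from 70.3 to 251 CPM with vehicle and from 185 to 918 CPM with TGFB. The 4 mt libraries of replicate 1 stood apart in one respect. Myh6, which encodes a cardiomyocyte myosin, lay at 14.6, 28.4, 24.5 and 18.2 CPM there and at 0.44 CPM or less in the other libraries. Results of the mt line are therefore also given without those libraries. In such bulk samples, fewer cells of a type and less RNA per cell cannot be told apart.

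Guidance cues were first described for growing axons and are used again by blood vessels, the heart and migrating mesenchyme. Semaphorins signal through plexins, the secreted class 3 members mostly with a neuropilin as co-receptor. Ephrins and Eph receptors signal in both directions between touching cells. Slits bind Robo receptors, netrins bind DCC, neogenin and Unc5 receptors, and Flrt proteins bind Unc5 receptors and latrophilins. The epicardium, the cell sheet around the heart, gives rise to mesenchyme when its cells lose their epithelial form, a change that TGFβ ligands can start in culture.

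The promoters of 4 genes whose reads moved with TGFB in both lines are shown because they stand for the secreted ligands, a receptor and an anchored ligand described first. RefSeq windows on GRCm38.p6 were found for 57 of the 67 genes. Each sequence starts 250 bases before the annotated start and ends before the first base that GENCODE places in an exon. Capitals mark CAGAC or its complement GTCTG, the letters of a SMAD-binding element.
Slit2 (chr5:47982905-47983137, plus strand): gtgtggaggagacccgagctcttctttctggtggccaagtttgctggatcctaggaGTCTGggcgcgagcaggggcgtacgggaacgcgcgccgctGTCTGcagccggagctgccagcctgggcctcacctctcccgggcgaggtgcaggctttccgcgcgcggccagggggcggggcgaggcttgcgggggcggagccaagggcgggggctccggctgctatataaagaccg
Robo3 (chr9:37433247-37433425, minus strand): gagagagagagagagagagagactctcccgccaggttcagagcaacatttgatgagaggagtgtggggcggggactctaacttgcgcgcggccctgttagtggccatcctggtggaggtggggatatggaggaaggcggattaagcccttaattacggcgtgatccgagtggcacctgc
Sema7a (chr9:57939862-57940111, plus strand): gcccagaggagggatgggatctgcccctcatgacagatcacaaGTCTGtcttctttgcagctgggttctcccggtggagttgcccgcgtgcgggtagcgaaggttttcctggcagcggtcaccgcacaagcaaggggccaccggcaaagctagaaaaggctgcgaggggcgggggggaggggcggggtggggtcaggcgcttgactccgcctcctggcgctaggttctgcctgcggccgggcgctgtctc
Sema3d (chr5:12382916-12383165, plus strand): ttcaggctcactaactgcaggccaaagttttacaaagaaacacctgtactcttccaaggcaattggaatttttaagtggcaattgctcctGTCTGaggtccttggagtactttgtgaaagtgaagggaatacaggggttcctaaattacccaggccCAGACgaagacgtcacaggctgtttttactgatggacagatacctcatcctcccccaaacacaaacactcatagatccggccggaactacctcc
The Slit2 and Sema3d stretches each hold 2 matches, that of Sema7a holds 1, and that of Robo3 holds 0. Over the 250 bases before the start, CAGAC was found on either strand in 38 of 71 windows of these genes and in 42.2% of all 32851 windows. The SMAD palindrome GTCTAGAC was in 0 of the 71 windows and in 0.167% of all. The AP-1 element, searched as TGACTCA and TGAGTCA, was in 2 of the 71 windows and in 4.46% of all. None of these motifs contains another.

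TGFB moved a large share of the guidance genes, with rises and falls among the Slits, the semaphorins and the ephrins and Eph receptors of each line. TGFB here means the average of the TGFB1 and TGFB2 groups set against vehicle. In the wt line 29 of the 57 tested genes passed the test (edgeR quasi-likelihood, adjusted p under 0.05 over 16835 genes). Of these, 18 rose, where 13.5% of all genes tested rose, and 11 fell, where 12% of all genes fell. In the mt line 25 passed, of which 12 rose and 13 fell, beside 10.7% and 12.7% of all genes. The shares of the guidance genes were 31.6% rising and 19.3% falling in wt, and 21.1% rising and 22.8% falling in mt. The median size of the log2 change, whatever its sign, was 0.89 in wt and 0.87 in mt, beside 0.44 and 0.47 over all genes. The median signed change was 0.23 in wt and -0.04 in mt, beside 0 and -0.01 over all genes.

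In all, 20 genes passed in both lines, which is 69% of the wt list and 80% of the mt list. Over all genes tested the shared calls were 64.8% of the wt list and 70.9% of the mt list, so the guidance genes lay near the background in this respect. None of the 20 moved in opposite directions. They comprised 11 genes that rose, namely Slit1, Slit2, Robo3, Ntn1, Sema3g, Sema4d, Sema4g, Sema6b, Sema7a, Efnb1 and Efnb3, and 9 that fell, namely Slit3, Sema3d, Sema3f, Sema5a, Sema6d, Plxna4, Flrt1, Ephb6 and Efna2. Called or not, 70.2% of the tested guidance genes in wt and 59.6% in mt had TGFB libraries that did not overlap the vehicle libraries, where 49.4% and 43.2% of all genes tested did. Nothing in the sources used here says that the 2 libraries of a group came from separate cultures, so the p-values measure the spread between these libraries, which may be technical.

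**Figure D1:**
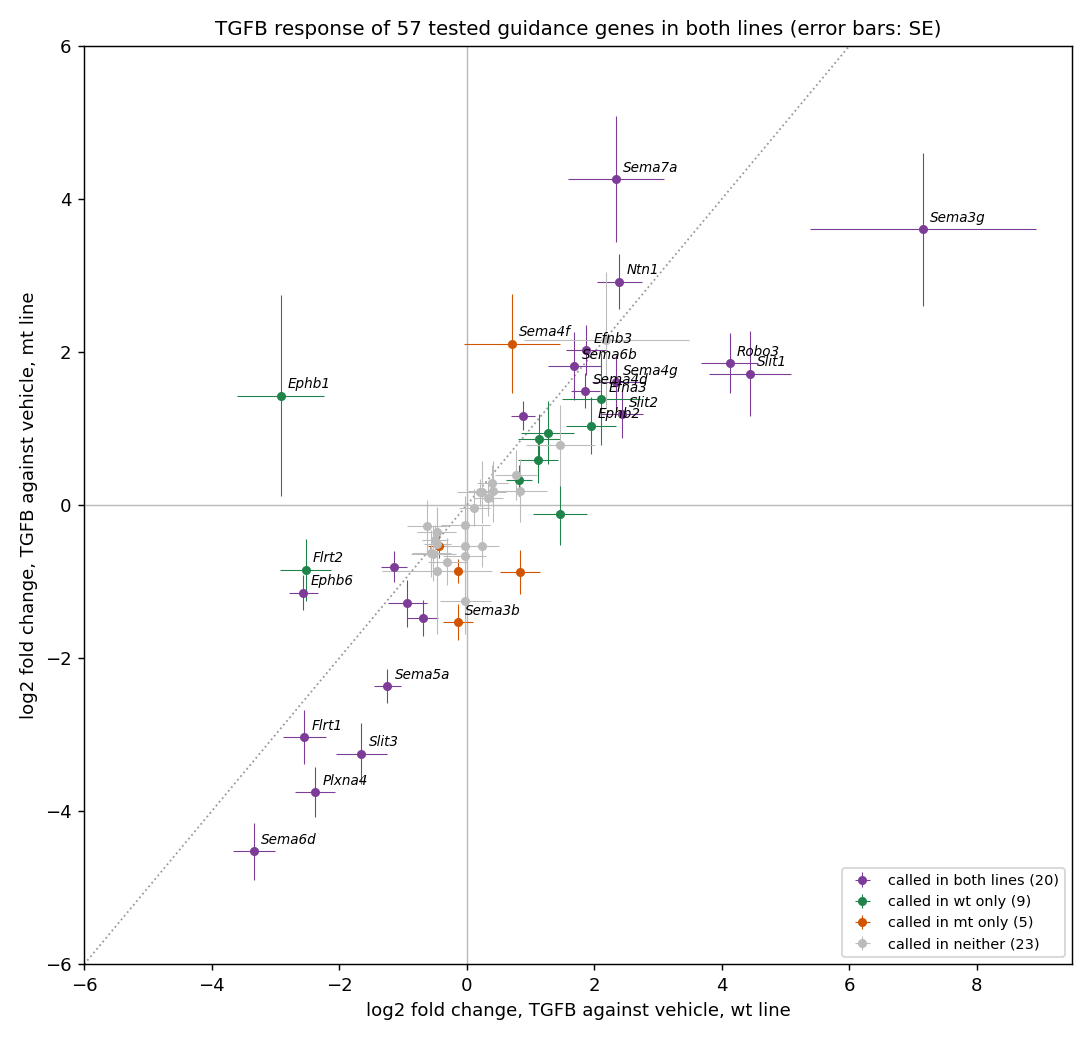
Log2 fold change with TGFB against vehicle in the wt line (horizontal) and the mt line (vertical) for the 57 tested guidance genes, each point 1 gene with its SE in both directions, coloured by where it passed the test. The dotted line marks equal change. The 20 genes called in both lines lie in the upper right and lower left corners, and the wt value of Sema3g is a fitted one, since its vehicle libraries hold 0 reads.

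The size of these counts depended on the libraries and on how replicates were handled. With the replicate number as a term of the fit, 40 guidance genes passed in mt (19 higher and 21 lower). That was 70.2% of those tested, while 40.3% of all genes then passed. In wt 35 passed (21 higher and 14 lower), or 61.4%, and the share of all genes was not counted there. Leaving out wt VEH replicate 1 left 17 calls in wt, and leaving out wt VEH replicate 2 left 19. The summed level of the epicardial marker list moved with the same contrast. It ran from 4225 to 4742 CPM over the 4 vehicle libraries and from 966 to 1857 CPM over the 8 TGFB libraries. Upk3b was its largest part in every vehicle library, and Sema3d, itself a guidance gene, was in the sum. Not every gene of the list fell. Aldh1a2 in both lines and Msln in wt were higher in every TGFB library than in any vehicle library of the line. The part of this list in the guidance genes' changes was not tested. Without the 4 mt libraries of replicate 1, 16 of the 25 mt calls remained, and those lost were Efna2, Epha1, Ephb4, Sema3e, Sema3f, Sema3g, Sema4f, Sema6b and Sema7a.

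Among the Slits, secreted ligands that repel axons and migrating cells through Robo receptors, Slit1 and Slit2 rose with TGFB and Slit3 fell, in both lines. Slit2 (mm9 chr5:48374393-48697017, plus strand) lay in the wt line at 139.7 and 103 CPM with vehicle, 671 and 649 after TGFB1, 682 and 621 after TGFB2 and 223 and 107 after BMP2. In the mt line it lay at 357 and 236 CPM with vehicle, 537 and 763 after TGFB1, 645 and 753 after TGFB2 and 208 and 224 after BMP2. TGFB libraries were above vehicle libraries in both lines, with log2 changes of 2.44 ± 0.33 (adjusted p = 0.00028) in wt and 1.19 ± 0.31 (adjusted p = 0.016) in mt. The TGFB libraries of the 2 lines overlapped in level, and both mt vehicle libraries lay above both wt vehicle libraries. Without mt VEH replicate 2 the mt call of Slit2 was lost (adjusted p = 0.12).

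Slit3 (mm9 chr11:34934957-35522009, plus strand), a paralogue of Slit2, went the other way. It lay in wt at 384 and 229 CPM with vehicle, 123 and 87.2 after TGFB1, 106 and 74.7 after TGFB2 and 569 and 229.8 after BMP2. Slit3 in mt lay at 487 and 280.4 CPM with vehicle, 57.8 and 33.3 after TGFB1, 41.5 and 30.5 after TGFB2 and 383 and 221 after BMP2. Every TGFB library was below every vehicle and BMP2 library of its line. The log2 change was -1.65 ± 0.40 (adjusted p = 0.0091) in wt and -3.25 ± 0.40 (adjusted p = 0.00016) in mt, and the wt call was lost without wt VEH replicate 1 (0.12), the adjusted p then standing in parentheses as in what follows. Reads of Slit2 per read of Slit3 ran from 0.364 to 0.448 in wt vehicle libraries and from 5.45 to 8.32 with TGFB. In mt the same ratio ran from 0.732 to 0.84 with vehicle and from 9.29 to 24.7 with TGFB. Per kilobase of annotated exon, Slit3 exceeded Slit2 in wt vehicle cells (58.6 against 12.1 CPM per kb), and Slit2 exceeded Slit3 with TGFB2 (65.0 against 17.2 CPM per kb).

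Slit1 was rare, but followed Slit2. It lay in wt at 0.180 and 0.0694 CPM with vehicle, 2.24 and 2.74 after TGFB1, 2.91 and 3.05 after TGFB2 and 0.301 and 0.318 after BMP2. Slit1 in mt lay at 0.910 and 0.215 CPM with vehicle, 2.64 and 1.72 after TGFB1, 0.995 and 1.75 after TGFB2 and 0.834 and 0.348 after BMP2. The log2 change was 4.44 ± 0.64 (adjusted p = 0.00039) in wt and 1.72 ± 0.55 (adjusted p = 0.042) in mt. The mt call was lost without mt VEH replicate 2 (0.27), mt TGFB1 replicate 1 (0.083), mt TGFB1 replicate 2 (0.052) or mt TGFB2 replicate 2 (0.13).

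Robo3 (mm9 chr9:37223629-37240760, minus strand), a divergent Robo receptor known for its part in midline crossing of commissural axons, rose steeply in wt. It lay in wt at 6.47 and 6.90 CPM with vehicle, 81.2 and 156 after TGFB1, 82.1 and 147 after TGFB2 and 12 and 18.6 after BMP2. Robo3 in mt lay at 38.1 and 21.7 CPM with vehicle, 85.3 and 150.4 after TGFB1, 84.2 and 113 after TGFB2 and 49.5 and 39.9 after BMP2. The TGFB libraries were the highest of each line, and in both lines replicate 2 exceeded replicate 1 within each TGFB group. The log2 change was 4.12 ± 0.45 (adjusted p = 7.9e-05) in wt and 1.85 ± 0.39 (adjusted p = 0.005) in mt. The mt call was lost without mt VEH replicate 2 (0.056). Robo4, an endothelial Robo, had 101 reads over all 16 libraries and was not tested. Robo1 and Robo2, the main Slit receptors, are listed in the tables only under names with a chromosome and strand attached, outside the rule. Their plus-strand entries share a start, that of Robo2 (mm9 chr16:72663393-72743636) lying wholly within that of Robo1 (chr16:72663393-73046345). They may share reads, so their values are uncertain, and a change of the plus-strand Robo2 entry cannot be assigned to Robo2. On the minus strand the Robo1 entry lies within that of Robo2. The plus-strand entry of Robo1 changed by 4.35 ± 0.85 (adjusted p = 0.0027) in wt and by 1.79 ± 0.69 (adjusted p = 0.084) in mt. That of Robo2 changed by 4.03 ± 0.70 (adjusted p = 0.0013) in wt and by 2.41 ± 0.59 (adjusted p = 0.012) in mt. Their minus-strand entries did not pass in either line, with log2 changes from -0.45 to 0.58.

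**Figure D2:**
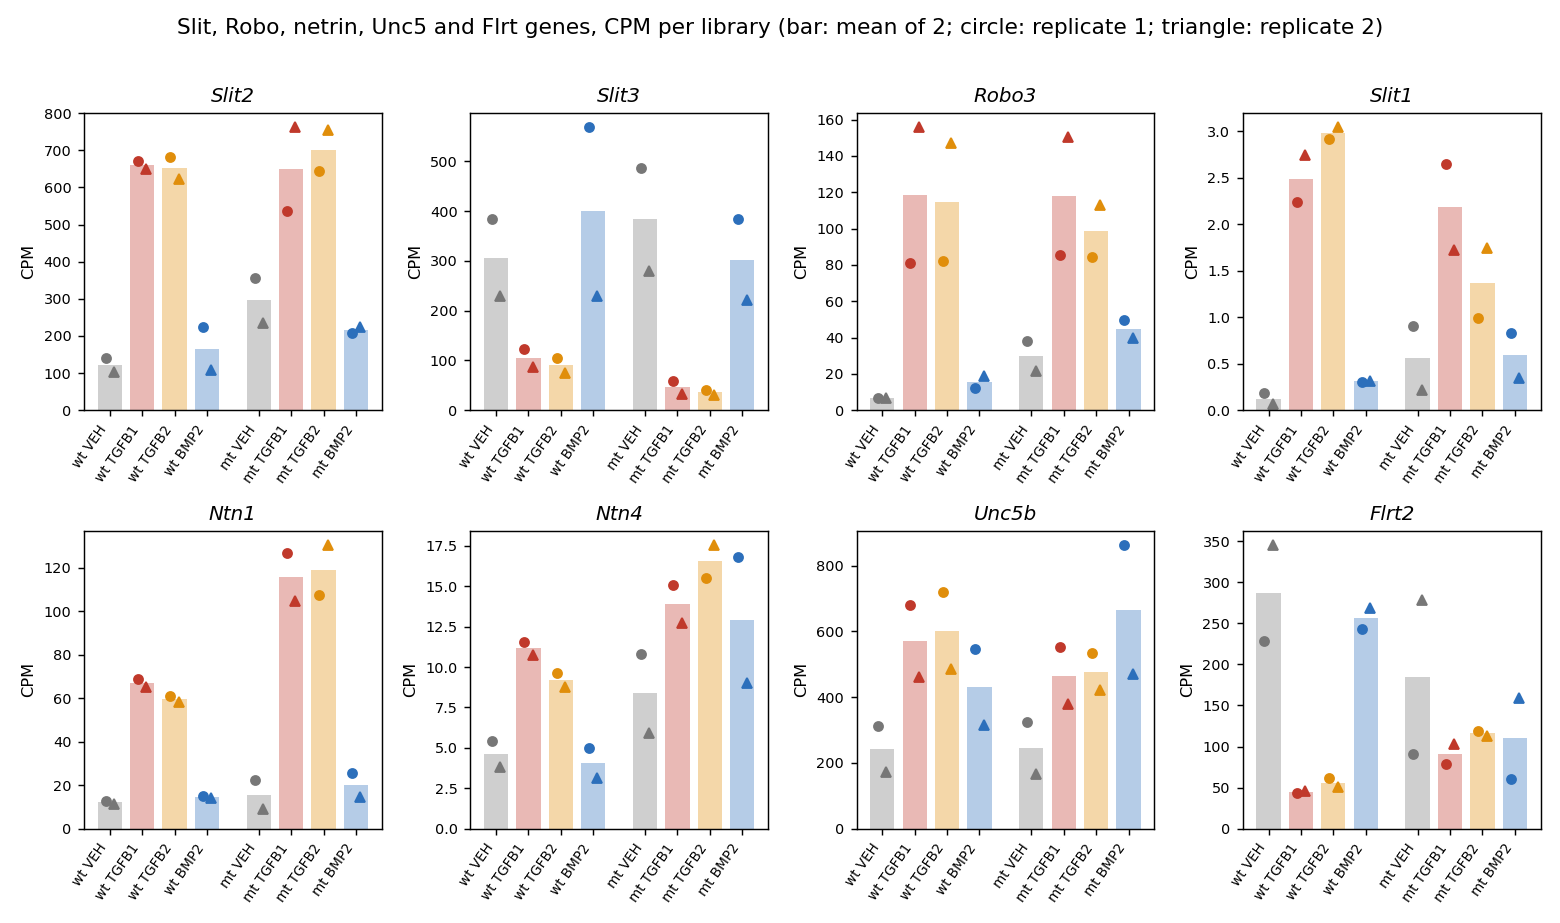
CPM (vertical axis, from 0) in each of the 16 libraries for 8 Slit, Robo, netrin, Unc5 and Flrt genes, grouped by line and treatment. Bars give the mean of 2 libraries and symbols the libraries, with circles for replicate 1 and triangles for replicate 2. Slit2, Robo3 and Ntn1 are highest, and Slit3 lowest, in the TGFB groups of both lines.

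Netrins are laminin-related ligands, and 2 of the 3 tested rose in wt. Ntn1 lay in wt at 12.9 and 11.2 CPM with vehicle, 69.1 and 65.2 after TGFB1, 61 and 58.3 after TGFB2 and 15.2 and 13.9 after BMP2. Ntn1 in mt lay at 22.3 and 8.93 CPM with vehicle, 127 and 105 after TGFB1, 108 and 130.5 after TGFB2 and 25.6 and 14.5 after BMP2. Levels in all 8 TGFB libraries exceeded those of all vehicle and BMP2 libraries. The log2 change was 2.39 ± 0.35 (adjusted p = 0.00042) in wt and 2.92 ± 0.36 (adjusted p = 0.00016) in mt, and both calls held when any 1 library was left out. Ntn4, a netrin of basement membranes, lay in wt at 5.44 and 3.82 CPM with vehicle, 11.6 and 10.8 after TGFB1, 9.65 and 8.75 after TGFB2 and 4.97 and 3.12 after BMP2. Ntn4 in mt lay at 10.8 and 5.92 CPM with vehicle, 15.1 and 12.8 after TGFB1, 15.5 and 17.5 after TGFB2 and 16.8 and 9.02 after BMP2. It rose in wt, by 1.13 ± 0.33 (adjusted p = 0.023), a call lost without wt VEH replicate 1 (0.055), wt VEH replicate 2 (0.21), wt TGFB1 replicate 1 (0.055) or wt TGFB2 replicate 1 (0.054). In mt its change was 0.86 ± 0.32 (adjusted p = 0.073), with an adjusted p of 0.006 when the replicate number was a term of the fit. The entry Gm8580 overlaps Ntn4 on the opposite strand, with 1125 reads against 3042, so the reads of Ntn4 are uncertain. Ntn3 changed by 0.40 ± 0.24 in wt and 0.28 ± 0.24 in mt, passed in neither, and shares its locus with Tbc1d24, so its reads are uncertain. Ntn5 had 6 reads in all.

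Per kilobase of exon, Unc5b had the highest level of the 4 Unc5 receptors, all of which were tested. Unc5b, a receptor that mediates repulsion from netrins, lay in wt at 313 and 171 CPM with vehicle, 679 and 462 after TGFB1, 718 and 484 after TGFB2 and 547 and 314 after BMP2. Unc5b in mt lay at 325 and 165 CPM with vehicle, 553 and 378 after TGFB1, 533 and 421 after TGFB2 and 862 and 469 after BMP2. In both lines replicate 1 exceeded replicate 2 in every group. Its log2 change with TGFB was 1.27 ± 0.42 (adjusted p = 0.042) in wt and 0.95 ± 0.41 (adjusted p = 0.12) in mt. With the replicate number in the fit the mt adjusted p was 0.00037. The wt call was lost without wt VEH replicate 1 (0.055), wt VEH replicate 2 (0.31), wt TGFB1 replicate 1 (0.11) or wt TGFB2 replicate 1 (0.1). Unc5a, with levels from 0.566 to 4.13 CPM over the 16 libraries, changed by -1.26 ± 0.43 (adjusted p = 0.054) in mt, and by -0.02 ± 0.40 in wt. Its mt adjusted p was 0.0032 with the replicate number in the fit. Unc5c and Unc5d stayed near or below 1 CPM, with 84 and 76 reads in all, and were called in neither line. For Unc5d the adjusted p in mt was 0.042 with the replicate number in the fit. Of the receptors outside these families, neogenin (Neo1) fell in both lines, with log2 changes of -1.11 ± 0.29 (adjusted p = 0.015) in wt and -1.31 ± 0.29 (adjusted p = 0.0066) in mt. It lay at 229 and 175 CPM in wt vehicle and at 78.6 to 113 CPM with TGFB.

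Flrt proteins are leucine-rich repeat membrane proteins that bind Unc5 receptors, and Flrt2 is known for keeping the mouse epicardium intact. Flrt2 lay in wt at 228 and 345 CPM with vehicle, 42.9 and 46.1 after TGFB1, 61.2 and 50.5 after TGFB2 and 243 and 269 after BMP2. Flrt2 in mt lay at 91.1 and 278 CPM with vehicle, 78.5 and 103 after TGFB1, 119 and 113 after TGFB2 and 60.9 and 159.7 after BMP2. It fell in wt, with a log2 change of -2.52 ± 0.40 (adjusted p = 0.00075). In mt one vehicle library lay within the range of the TGFB libraries and the other above it, and the change of -0.84 ± 0.41 (adjusted p = 0.16) did not pass. Flrt1 fell in both lines. It lay in wt at 23.4 and 23.4 CPM with vehicle, 2.83 and 5.70 after TGFB1, 3.28 and 4.11 after TGFB2 and 33.1 and 14.2 after BMP2. Flrt1 in mt lay at 16.1 and 24.4 CPM with vehicle, 1.98 and 3.15 after TGFB1, 2.22 and 2.46 after TGFB2 and 14.5 and 15.2 after BMP2. The changes were -2.55 ± 0.34 (adjusted p = 0.00024) in wt and -3.03 ± 0.35 (adjusted p = 0.0001) in mt, and both held when any 1 library was left out. Flrt3 lay in wt at 36.4 and 45.4 CPM with vehicle, 66.1 and 91 after TGFB1, 93.1 and 109 after TGFB2 and 31.3 and 43.6 after BMP2. Flrt3 in mt lay at 61.6 and 80.2 CPM with vehicle, 86.1 and 123 after TGFB1, 102 and 117 after TGFB2 and 43.4 and 94.1 after BMP2. It rose in wt, by 1.12 ± 0.31 (adjusted p = 0.019), and the call was lost without wt VEH replicate 1 (0.16), wt VEH replicate 2 (0.074) or wt TGFB1 replicate 2 (0.055). Its mt change was 0.59 ± 0.30 (adjusted p = 0.19), with an adjusted p of 0.014 when the replicate number was in the fit.

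The class 3 semaphorins are secreted and bind neuropilins and class A plexins, apart from Sema3e, which binds Plxnd1 directly. All 7 were tested. In wt 1 rose and 2 fell, and in mt 1 rose and 4 fell. Sema3d, long used as an epicardial marker, lay in wt at 235 and 289 CPM with vehicle, 137 and 185 after TGFB1, 140.4 and 186 after TGFB2 and 311 and 324 after BMP2. Sema3d in mt lay at 178 and 243 CPM with vehicle, 60.7 and 90.4 after TGFB1, 74.1 and 78 after TGFB2 and 161 and 229 after BMP2. It was lower in every TGFB library than in any vehicle library of its line, with changes of -0.69 ± 0.24 (adjusted p = 0.049) in wt and -1.48 ± 0.23 (adjusted p = 0.00083) in mt. The wt call was lost without wt VEH replicate 1 (0.092), wt VEH replicate 2 (0.3), wt TGFB1 replicate 1 (0.12), wt TGFB2 replicate 1 (0.14) or wt TGFB2 replicate 2 (0.051). Sema3f, a repellent that acts through neuropilin-2, lay in wt at 237 and 146 CPM with vehicle, 128 and 93.2 after TGFB1, 101 and 80.9 after TGFB2 and 284 and 146 after BMP2. Sema3f in mt lay at 192 and 128 CPM with vehicle, 78.4 and 60.6 after TGFB1, 60.1 and 64 after TGFB2 and 172 and 106 after BMP2. It changed by -0.93 ± 0.31 (adjusted p = 0.045) in wt, a call lost without wt VEH replicate 1 (0.43), wt TGFB1 replicate 2 (0.13), wt TGFB2 replicate 1 (0.069) or wt TGFB2 replicate 2 (0.12). In mt it changed by -1.28 ± 0.31 (adjusted p = 0.01), a call lost without mt VEH replicate 1 (0.1).

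Sema3b and Sema3e fell in mt and were not called in wt. Sema3b, a repellent known also as a candidate tumour suppressor, lay in wt at 9.26 and 6.90 CPM with vehicle, 7.19 and 8.19 after TGFB1, 6.98 and 6.98 after TGFB2 and 7.23 and 4.40 after BMP2. Sema3b in mt lay at 20.7 and 15.2 CPM with vehicle, 7.20 and 5.35 after TGFB1, 5.97 and 6.35 after TGFB2 and 11 and 10.4 after BMP2. Its change was -0.14 ± 0.24 (adjusted p = 0.75) in wt, and it fell in mt, with a log2 change of -1.53 ± 0.23 (adjusted p = 0.00066). Sema3e lay in wt at 105 and 108 CPM with vehicle, 95.9 and 106 after TGFB1, 94.1 and 92 after TGFB2 and 137 and 148 after BMP2. Sema3e in mt lay at 176 and 139.9 CPM with vehicle, 82 and 91.8 after TGFB1, 84.9 and 87.9 after TGFB2 and 86 and 104 after BMP2. The change was -0.14 ± 0.16 (adjusted p = 0.61) in wt and -0.87 ± 0.16 (adjusted p = 0.0019) in mt, the latter held when any 1 library was left out but not when the 4 mt libraries of replicate 1 were. A cDNA entry on the same strand shares 1850 bases with Sema3e and had 2333 reads against 32769, so the level of Sema3e is uncertain. The Sema3e receptor gene Plxnd1 was at 5.02 to 16.6 CPM throughout and passed in neither line. The mt change of Plxnd1 was -0.66 ± 0.33 (adjusted p = 0.18), with an adjusted p of 0.043 when the replicate number was in the fit.

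Sema3a, the first semaphorin shown to collapse growth cones, and Sema3c, needed for outflow tract septation in mice, were called in neither line. Sema3a lay at 64.6 and 62.3 CPM in wt vehicle and 39.9 to 60.8 with TGFB, and in mt at 99.7 and 166 and 60.00 to 102. Its mt change of -0.74 ± 0.30 (adjusted p = 0.1) had an adjusted p of 0.013 with the replicate number in the fit. Sema3c lay in wt at 62.2 and 85 CPM with vehicle, 74.6 and 95.4 after TGFB1, 86.6 and 89.9 after TGFB2 and 60.1 and 46.3 after BMP2. Sema3c in mt lay at 139 and 233 CPM with vehicle, 103 and 147 after TGFB1, 119 and 143 after TGFB2 and 95.6 and 152 after BMP2. Its mt change of -0.54 ± 0.27 (adjusted p = 0.17) had an adjusted p of 0.042 with the replicate number in the fit. Sema3g was the only class 3 gene that rose. No read fell on it in the 2 wt vehicle libraries against 76 reads in the 4 wt TGFB libraries. With 3 reads over the vehicle group taken as the floor, the level was 14.6-fold higher. The lower 95% limit from counting error alone was 11.6-fold, which leaves out the spread between libraries. In wt it lay at 0 and 0 CPM with vehicle, 1.83 and 0.493 after TGFB1, 0.971 and 0.574 after TGFB2 and 0.452 and 0 after BMP2. Sema3g in mt lay at 0.579 and 0.0538 CPM with vehicle, 4.41 and 3.01 after TGFB1, 3.75 and 2.85 after TGFB2 and 0.417 and 0.0436 after BMP2. Its mt change was 3.60 ± 1.00 (adjusted p = 0.024), lost without mt VEH replicate 2 (0.14) or mt TGFB2 replicate 1 (0.052), and the wt test gave an adjusted p of 0.012, lost without wt VEH replicate 1 (0.065) or wt VEH replicate 2 (0.088). Nrp1, the co-receptor gene for many class 3 ligands, lay at 48 and 49.5 CPM in wt vehicle and at 190.0 to 215 CPM with TGFB. It rose by 2.07 ± 0.19 (adjusted p = 3e-05) in wt and 2.23 ± 0.20 (adjusted p = 1.4e-05) in mt. Nrp2 rose in mt by 0.75 ± 0.21 (adjusted p = 0.024), and was not called in wt, where its adjusted p was 0.12.

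The transmembrane and anchored semaphorins act mostly at short range. Of 12 tested, 4 rose and 2 fell in wt, and 5 rose and 2 fell in mt. Sema4d, the ligand of Plxnb1, lay in wt at 7.55 and 6.04 CPM with vehicle, 22.9 and 24.7 after TGFB1, 24.8 and 26.4 after TGFB2 and 11.9 and 8.10 after BMP2. Sema4d in mt lay at 14.2 and 9.36 CPM with vehicle, 32.8 and 33.4 after TGFB1, 30.00 and 36 after TGFB2 and 11.7 and 10.5 after BMP2. It rose by 1.86 ± 0.23 (adjusted p = 0.00017) in wt and by 1.49 ± 0.23 (adjusted p = 0.00067) in mt, and both calls held when any 1 library was left out. Sema4g lay in wt at 3.46 and 2.60 CPM with vehicle, 17.2 and 14.7 after TGFB1, 14.8 and 14.8 after TGFB2 and 3.31 and 3.44 after BMP2. Sema4g in mt lay at 7.78 and 3.07 CPM with vehicle, 19.9 and 16 after TGFB1, 14.8 and 14.8 after TGFB2 and 7.64 and 4.01 after BMP2. It rose by 2.34 ± 0.37 (adjusted p = 0.00074) in wt and by 1.60 ± 0.36 (adjusted p = 0.0069) in mt, the mt call being lost without mt VEH replicate 2 (0.057). Sema7a, the one GPI-anchored semaphorin, which can signal through integrins, lay in wt at 0.405 and 0.104 CPM with vehicle, 1.89 and 0.555 after TGFB1, 1.94 and 0.795 after TGFB2 and 0.903 and 0.318 after BMP2. Sema7a in mt lay at 0.0827 and 0.323 CPM with vehicle, 6.17 and 3.04 after TGFB1, 4.90 and 3.42 after TGFB2 and 0.417 and 0.348 after BMP2. Its rise was 2.34 ± 0.75 (adjusted p = 0.04) in wt, lost without wt VEH replicate 1 (0.054), wt VEH replicate 2 (0.29), wt TGFB1 replicate 1 (0.11) or wt TGFB2 replicate 1 (0.11). In mt the rise was 4.26 ± 0.82 (adjusted p = 0.003), the largest of any guidance gene there. That call held when any 1 library was left out, but not without the 4 mt libraries of replicate 1. The integrin subunit gene Itgb1, which encodes part of a receptor for Sema7a, rose by 1.14 ± 0.26 (adjusted p = 0.007) in wt and 1.42 ± 0.27 (adjusted p = 0.0024) in mt.

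The 2 membrane-bound semaphorins that fell were the same in each line, Sema6d and Sema5a. Sema6d (mm9 chr2:123915704-124493506, plus strand), a ligand of Plxna1 with a known part in chick heart formation, lay in wt at 48.5 and 46.1 CPM with vehicle, 4.18 and 4.59 after TGFB1, 3.83 and 6.01 after TGFB2 and 89.6 and 53.2 after BMP2. Sema6d in mt lay at 10.6 and 25 CPM with vehicle, 0.734 and 0.660 after TGFB1, 1.22 and 0.606 after TGFB2 and 29.9 and 24.8 after BMP2. It showed the largest fall of the whole set in each line, -3.34 ± 0.33 (adjusted p = 4.5e-05) in wt and -4.53 ± 0.37 (adjusted p = 1.1e-05) in mt. Sema5a, a semaphorin with thrombospondin repeats, lay in wt at 12.9 and 15.1 CPM with vehicle, 6.42 and 6.93 after TGFB1, 5.53 and 4.90 after TGFB2 and 16.7 and 10.1 after BMP2. Sema5a in mt lay at 11.3 and 11 CPM with vehicle, 2.42 and 2.05 after TGFB1, 2.22 and 2.00 after TGFB2 and 5.42 and 6.49 after BMP2. It changed by -1.25 ± 0.21 (adjusted p = 0.0012) in wt and by -2.36 ± 0.22 (adjusted p = 2.3e-05) in mt. The calls of Sema6d and Sema5a held in both lines when any 1 library was left out. The small nucleolar RNA entry Snord123 lies within Sema5a on the opposite strand and took more reads, so the level of Sema5a is uncertain. Sema6b and Sema4f passed with few reads, 247 and 101 in all. Sema6b rose by 1.69 ± 0.42 (adjusted p = 0.01) in wt and 1.82 ± 0.45 (adjusted p = 0.011) in mt, lost without wt VEH replicate 1 (0.11) and without mt VEH replicate 2 (0.093) respectively. Sema4f rose in mt by 2.11 ± 0.65 (adjusted p = 0.034), a call lost without mt VEH replicate 1 (0.056), mt VEH replicate 2 (0.22), mt TGFB1 replicate 1 (0.064), mt TGFB1 replicate 2 (0.052) or mt TGFB2 replicate 1 (0.081). Sema4a, Sema4b, Sema4c, Sema6a and Sema6c, with means from 2.47 to 20.6 CPM, passed in neither line. With the replicate number in the fit, Sema4c passed in wt (adjusted p = 0.037) and Sema4b in mt (adjusted p = 0.037). Sema4b and Sema4c each share bases with a cDNA entry on the same strand, which leaves their levels uncertain. Sema5b, a relative of Sema5a, had 11 reads in all and was not tested.

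Of 7 plexins tested, receptors of the semaphorins, only Plxna4 passed, falling in both lines. Plxna4 (mm9 chr6:32094558-32538192, minus strand) lay in wt at 362 and 274 CPM with vehicle, 63.5 and 66.9 after TGFB1, 57.3 and 57.2 after TGFB2 and 593 and 217 after BMP2. Plxna4 in mt lay at 432 and 303 CPM with vehicle, 32.3 and 23.6 after TGFB1, 26.3 and 26.7 after TGFB2 and 282 and 209 after BMP2. It changed by -2.38 ± 0.32 (adjusted p = 0.00025) in wt and -3.75 ± 0.33 (adjusted p = 1.4e-05) in mt, and both calls held when any 1 library was left out. Plxna1 lay in wt at 250.1 and 139 CPM with vehicle, 734 and 473 after TGFB1, 562 and 398 after TGFB2 and 421 and 195 after BMP2. Plxna1 in mt lay at 571 and 163 CPM with vehicle, 762 and 499 after TGFB1, 690.3 and 567 after TGFB2 and 460.1 and 202 after BMP2. Its changes of 1.47 ± 0.55 (adjusted p = 0.069) in wt and 0.78 ± 0.53 (adjusted p = 0.33) in mt did not pass, but did with the replicate number in the fit (adjusted p = 0.00042 and 0.0089). Reads of Plxna1 per read of Plxna4 ran from 0.507 to 0.69 in wt vehicle libraries and from 6.96 to 11.6 with TGFB. In mt they ran from 0.537 to 1.32 with vehicle and from 21.1 to 26.2 with TGFB. Plxnb2 was the most abundant guidance gene per kilobase of exon in vehicle cells, at 107 CPM per kb in wt and 100.9 CPM per kb in mt. It lay in wt at 837 and 569 CPM with vehicle, 634 and 456 after TGFB1, 490.3 and 386 after TGFB2 and 993 and 559 after BMP2, and its changes of -0.52 ± 0.36 (adjusted p = 0.34) in wt and -0.63 ± 0.36 (adjusted p = 0.23) in mt did not pass. In mt its adjusted p was 0.036 with the replicate number in the fit. Plxna3 passed in neither line, but did in both with the replicate number in the fit (log2 changes there of -0.53 in wt and -0.59 in mt, adjusted p = 0.012 and 0.0067). Plxnb1, the receptor of Sema4d, and Plxna2 were called in neither line under either fit. Plxnb3 and Plxnc1 had 34 and 55 reads in all and were not tested.

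**Figure D3:**
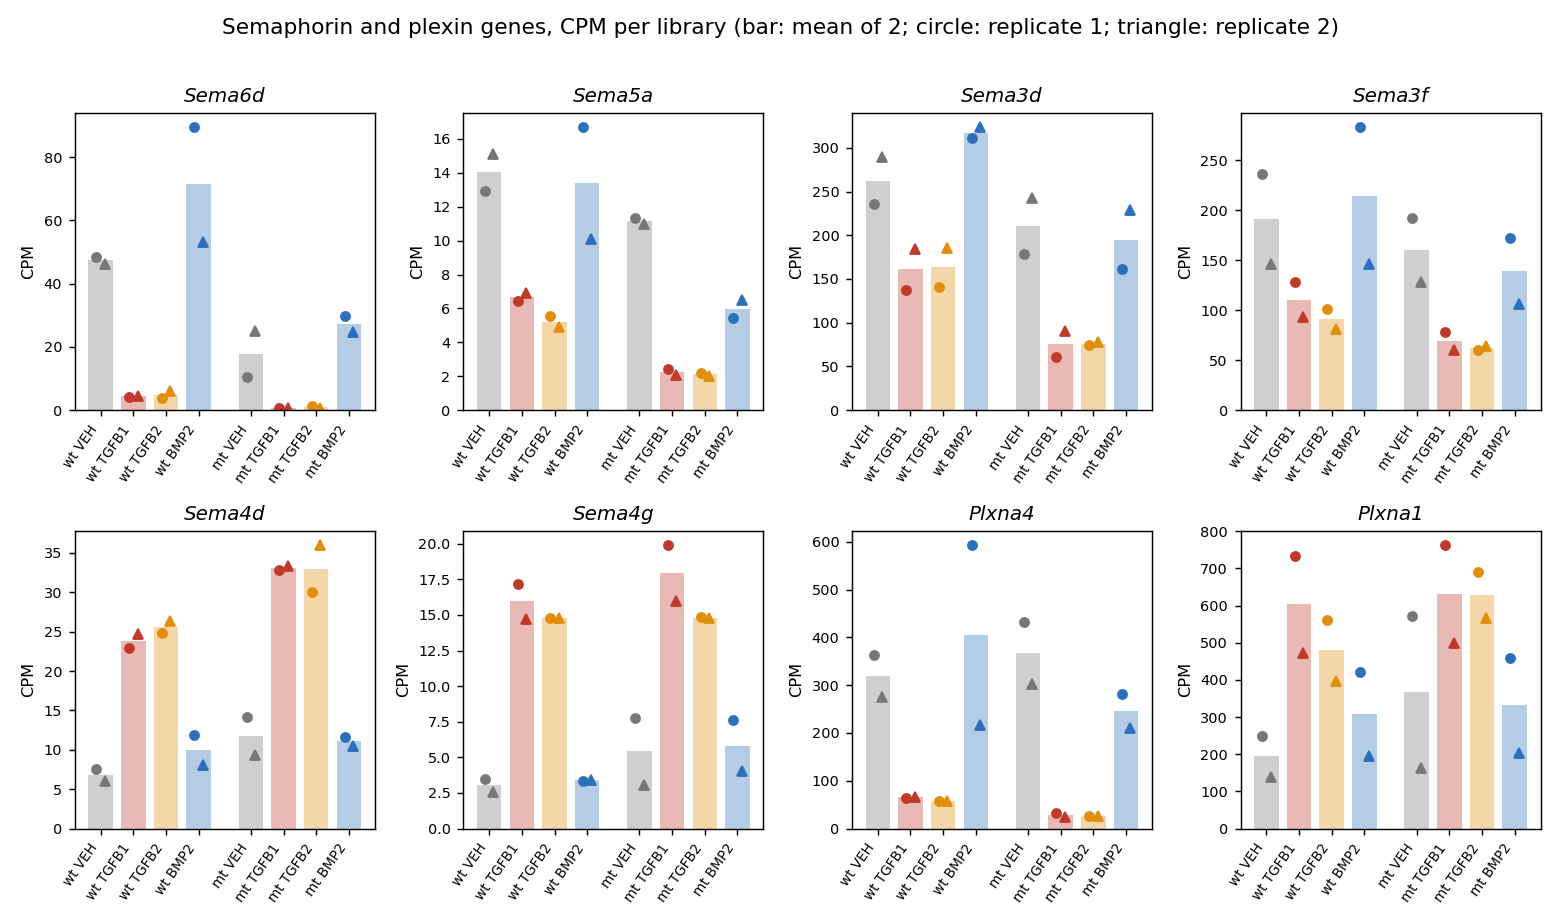
CPM (vertical axis, from 0) in each of the 16 libraries for 6 semaphorin and 2 plexin genes, grouped by line and treatment. Bars give the mean of 2 libraries, circles replicate 1 and triangles replicate 2. Sema6d, Sema5a and Plxna4 are lowest, and Sema4d and Sema4g highest, in the TGFB groups of both lines.

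All 3 ephrin-B ligands, which span the membrane and bind EphB receptors, rose in wt, and 2 of the 3 rose in mt. Efnb1 lay in wt at 91.9 and 82.3 CPM with vehicle, 150.2 and 151 after TGFB1, 189.8 and 155 after TGFB2 and 84.3 and 79 after BMP2. Efnb1 in mt lay at 107 and 82.1 CPM with vehicle, 228 and 196 after TGFB1, 214 and 214 after TGFB2 and 143 and 116 after BMP2. It rose by 0.89 ± 0.19 (adjusted p = 0.0041) in wt, lost without wt VEH replicate 2 (0.059), and by 1.17 ± 0.19 (adjusted p = 0.00093) in mt. Efnb2, the partner of Ephb4 in the arteries and veins of the embryo, lay in wt at 97.1 and 114 CPM with vehicle, 198 and 199 after TGFB1, 171 and 181 after TGFB2 and 158 and 133 after BMP2. Efnb2 in mt lay at 197 and 132 CPM with vehicle, 209 and 186 after TGFB1, 218 and 211 after TGFB2 and 205 and 159 after BMP2. It rose by 0.82 ± 0.20 (adjusted p = 0.011) in wt, lost without wt VEH replicate 1 (0.12). In mt one vehicle library lay within the TGFB range, and the change was 0.32 ± 0.20 (adjusted p = 0.28). Efnb3 lay in wt at 3.06 and 2.60 CPM with vehicle, 9.25 and 9.92 after TGFB1, 11 and 11.4 after TGFB2 and 1.05 and 2.81 after BMP2. Efnb3 in mt lay at 5.63 and 3.12 CPM with vehicle, 16.9 and 19.3 after TGFB1, 17.4 and 17.2 after TGFB2 and 3.75 and 3.40 after BMP2. It rose by 1.87 ± 0.32 (adjusted p = 0.0012) in wt and 2.03 ± 0.33 (adjusted p = 0.00091) in mt, and both calls held when any 1 library was left out.

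Of 5 ephrin-A ligands, which are held by a GPI anchor, 1 rose and 1 fell in wt, and 1 fell in mt. Efna2 lay in wt at 22.6 and 17.1 CPM with vehicle, 8.31 and 8.72 after TGFB1, 10.02 and 8.92 after TGFB2 and 18.7 and 14.3 after BMP2. Efna2 in mt lay at 13.4 and 16.6 CPM with vehicle, 8.30 and 6.86 after TGFB1, 8.42 and 11 after TGFB2 and 14.7 and 14.6 after BMP2. It changed by -1.14 ± 0.20 (adjusted p = 0.0013) in wt and by -0.81 ± 0.20 (adjusted p = 0.013) in mt, the mt call being lost without mt VEH replicate 2 (0.11). Efna3 lay in wt at 5.03 and 1.25 CPM with vehicle, 13.3 and 9.27 after TGFB1, 22.8 and 9.41 after TGFB2 and 2.71 and 1.96 after BMP2. Efna3 in mt lay at 7.36 and 4.90 CPM with vehicle, 16.5 and 12.3 after TGFB1, 11.2 and 24.1 after TGFB2 and 12.9 and 4.70 after BMP2. It rose in wt by 2.11 ± 0.62 (adjusted p = 0.027), lost without wt VEH replicate 2 (0.21), wt TGFB1 replicate 1 (0.062) or wt TGFB2 replicate 1 (0.074). Its mt change was 1.39 ± 0.60 (adjusted p = 0.12), with an adjusted p of 0.021 when the replicate number was in the fit, and an antisense entry overlaps it. Efna5, the most abundant ephrin-A, lay between 104 and 249 CPM over all 16 libraries with changes of -0.02 ± 0.38 and -0.26 ± 0.38. Efna1 and Efna4 passed in neither line, although Efna4 had an adjusted p of 0.036 in mt with the replicate number in the fit, and an antisense entry with more reads overlaps Efna4.

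EphB receptors are tyrosine kinases, apart from Ephb6, whose kinase domain is inactive. Ephb6 lay in wt at 79.7 and 67.8 CPM with vehicle, 12.6 and 14.3 after TGFB1, 10.1 and 13.1 after TGFB2 and 48.9 and 36.5 after BMP2. Ephb6 in mt lay at 24.3 and 40.9 CPM with vehicle, 17 and 13.4 after TGFB1, 13.4 and 15.4 after TGFB2 and 23.8 and 27.7 after BMP2. It changed by -2.56 ± 0.22 (adjusted p = 2.2e-05) in wt and by -1.14 ± 0.23 (adjusted p = 0.0033) in mt, the mt call being lost without mt VEH replicate 2 (0.068). Ephb2 lay in wt at 16.6 and 11.4 CPM with vehicle, 66.8 and 51.2 after TGFB1, 54.1 and 44.2 after TGFB2 and 37.5 and 21.3 after BMP2. Ephb2 in mt lay at 31.2 and 16.7 CPM with vehicle, 55.6 and 44.7 after TGFB1, 43.6 and 52.3 after TGFB2 and 67.1 and 30.01 after BMP2. It rose in wt by 1.94 ± 0.39 (adjusted p = 0.0032), lost without wt VEH replicate 2 (0.055). Its mt change was 1.04 ± 0.37 (adjusted p = 0.064), with an adjusted p of 0.0019 when the replicate number was in the fit. Ephb4 lay in wt at 88.1 and 72.7 CPM with vehicle, 60.9 and 58.7 after TGFB1, 62.8 and 54.7 after TGFB2 and 85.8 and 76.3 after BMP2. Ephb4 in mt lay at 73.1 and 63.6 CPM with vehicle, 55.1 and 42.4 after TGFB1, 48.1 and 43.9 after TGFB2 and 68.5 and 60.5 after BMP2. Its change was -0.44 ± 0.17 (adjusted p = 0.077) in wt, with an adjusted p of 0.0098 when the replicate number was in the fit, and -0.53 ± 0.17 (adjusted p = 0.04) in mt, lost without mt VEH replicate 1 (0.21), mt VEH replicate 2 (0.067), mt TGFB1 replicate 2 (0.095), mt TGFB2 replicate 1 (0.068) or mt TGFB2 replicate 2 (0.11). Ephb3 stayed between 71.7 and 130 CPM in all libraries and passed in neither line. Ephb1 had 74 reads in all. It fell in wt, with a log2 change of -2.92 ± 0.68 (adjusted p = 0.0074), lost without wt VEH replicate 1 (0.097), from 1.08 and 0.486 CPM to 0.0607 to 0.123 CPM.

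Only 4 of 9 EphA receptors were expressed enough to test. Epha2, the most abundant, lay in wt at 262 and 184 CPM with vehicle, 487 and 326 after TGFB1, 464 and 317 after TGFB2 and 331 and 252 after BMP2. Epha2 in mt lay at 549 and 190.3 CPM with vehicle, 524 and 350.0 after TGFB1, 447 and 366 after TGFB2 and 504 and 265 after BMP2. Replicate 1 exceeded replicate 2 in every group. Its changes were 0.84 ± 0.42 (adjusted p = 0.18) in wt, with an adjusted p of 0.0082 when the replicate number was in the fit, and 0.19 ± 0.41 (adjusted p = 0.79) in mt. Epha4, which binds ligands of both classes, lay in wt at 0.539 and 0.520 CPM with vehicle, 1.89 and 0.955 after TGFB1, 2.13 and 1.02 after TGFB2 and 1.66 and 1.06 after BMP2. Epha4 in mt lay at 1.41 and 1.40 CPM with vehicle, 1.98 and 1.25 after TGFB1, 1.15 and 0.963 after TGFB2 and 1.53 and 1.83 after BMP2. It rose in wt by 1.46 ± 0.43 (adjusted p = 0.026), lost without wt VEH replicate 1 (0.12), wt VEH replicate 2 (0.15), wt TGFB1 replicate 1 (0.078) or wt TGFB2 replicate 1 (0.079). Epha7 passed in neither line. Epha3, Epha5, Epha6, Epha8 and Epha10 had 0 to 28 reads over the 16 libraries.

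Epha1 (mm9 chr6:42308485-42323267, minus strand) had fitted changes of opposite sign in the 2 lines. It lay in wt at 19.8 and 14.2 CPM with vehicle, 37.2 and 27.3 after TGFB1, 30.6 and 26.2 after TGFB2 and 27.6 and 17.1 after BMP2. Epha1 in mt lay at 70.8 and 36.7 CPM with vehicle, 24.4 and 22.7 after TGFB1, 40.7 and 32.6 after TGFB2 and 26 and 38.9 after BMP2. The change was 0.83 ± 0.31 (adjusted p = 0.069) in wt, with an adjusted p of 0.01 when the replicate number was in the fit. In mt it was -0.87 ± 0.29 (adjusted p = 0.048), lost without mt VEH replicate 1 (0.55), mt TGFB1 replicate 1 (0.079), mt TGFB1 replicate 2 (0.099), mt TGFB2 replicate 1 (0.07) or mt TGFB2 replicate 2 (0.13), and the vehicle and TGFB ranges overlapped. Epha1 shares 1661 bases with Zyx on the opposite strand, which had 415267 reads against 8985. The sources used here do not say whether counting used strand, so the reads of Epha1 are uncertain. Zyx itself changed by 0.32 ± 0.21 (adjusted p = 0.32) in wt and by -0.22 ± 0.20 (adjusted p = 0.49) in mt.

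**Figure D4:**
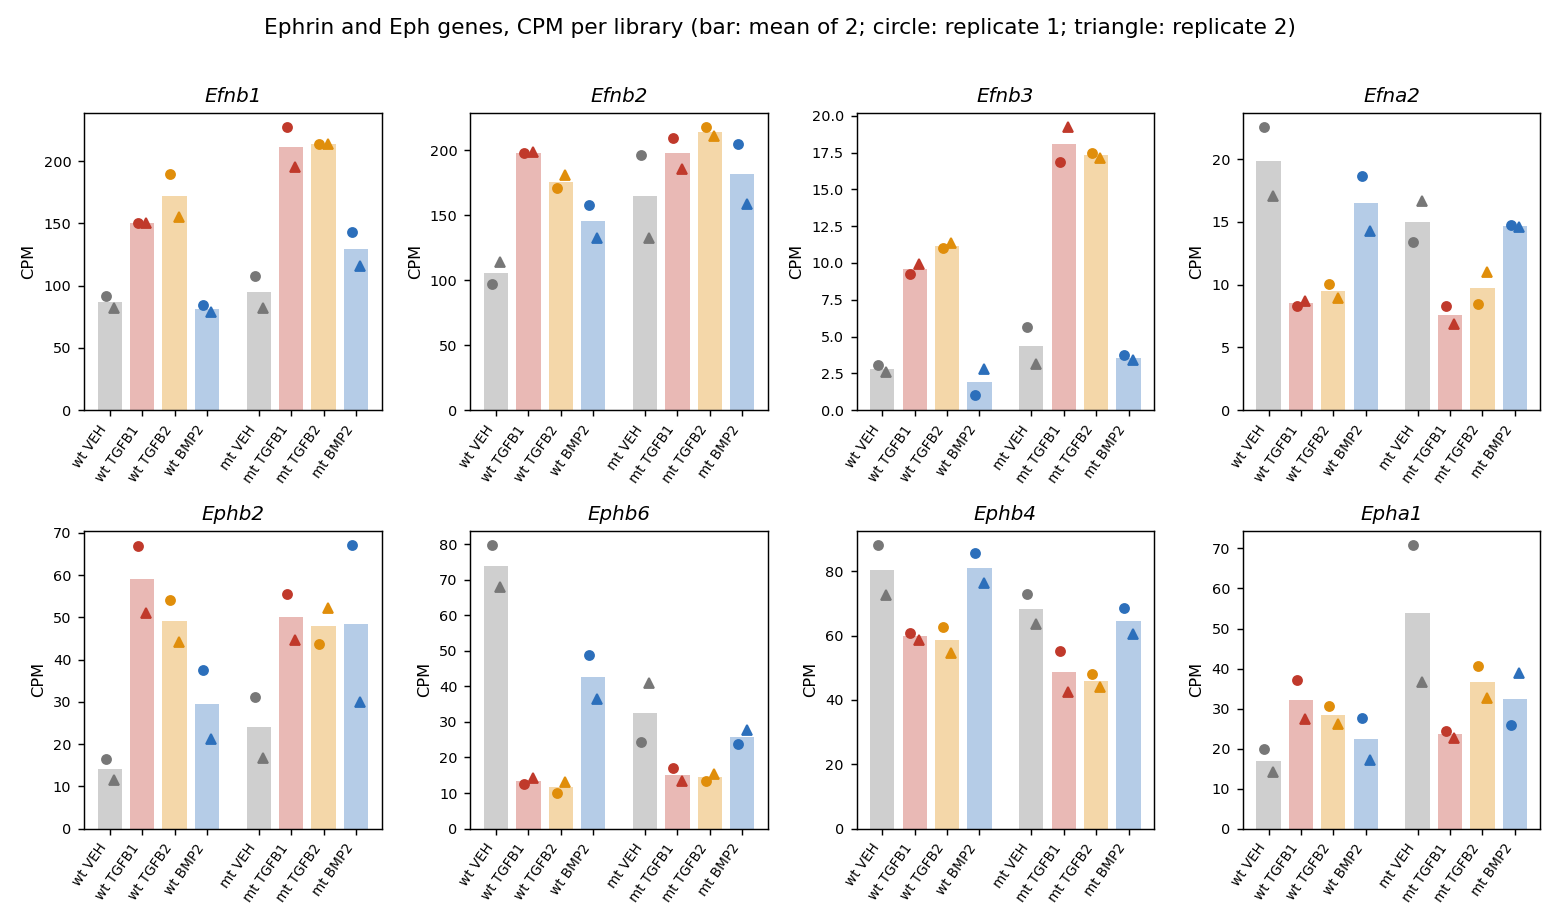
CPM (vertical axis, from 0) in each of the 16 libraries for 4 ephrin and 4 Eph receptor genes, grouped by line and treatment. Bars give the mean of 2 libraries, circles replicate 1 and triangles replicate 2. Efnb1 and Efnb3 are highest and Ephb6 lowest in the TGFB groups of both lines, and Epha1 is highest in mt vehicle.

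Whether the 2 lines differed in their TGFB response was tested as an interaction, the mt change minus the wt change. None of the 57 genes passed, where 0.184% of all genes did. At an unadjusted p under 0.05 there were 15 genes, or 26.3%, where 7.84% of all genes had one. With the replicate number in the fit 5 genes passed, where 2.41% of all genes did. They were Slit3 (difference -1.60 ± 0.25, adjusted p 0.0042), Epha1 (-1.67 ± 0.32, 0.015), Robo3 (-2.30 ± 0.44, 0.016), Sema3b (-1.40 ± 0.28, 0.02) and Ephb6 (1.43 ± 0.30, 0.024), all values being those of that fit. In the fit without the replicate number their adjusted p ran from 0.12 to 0.43. DESeq2 called 5, but the share of all genes that it called was not counted. The count in the main fit also moved when mt VEH replicate 2 was left out, which leaves 1 library in that group. The difference without the 4 mt libraries of replicate 1 is not given here, and that fit has 1 library in each mt group. In the fit without the replicate number, the difference for Slit2 was -1.25 ± 0.42 (adjusted p = 0.35), with a 95% interval of -2.16 to -0.34. For Slit1 it was -2.72 ± 0.85 (adjusted p = 0.3). On the positive side, Flrt2 differed by 1.68 ± 0.59 (adjusted p = 0.4). For Efnb3, called in both lines, the interval ran from -0.77 to 1.09. Of the 52 genes that averaged 1 CPM or more, 42 had a difference below 0, or 80.8%, and the interval lay wholly below 0 for 12 (23.1%) and wholly above 0 for 2 (3.85%). Over all genes at that level the shares were 53.8%, 6.14% and 1.6%.

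**Figure D5:**
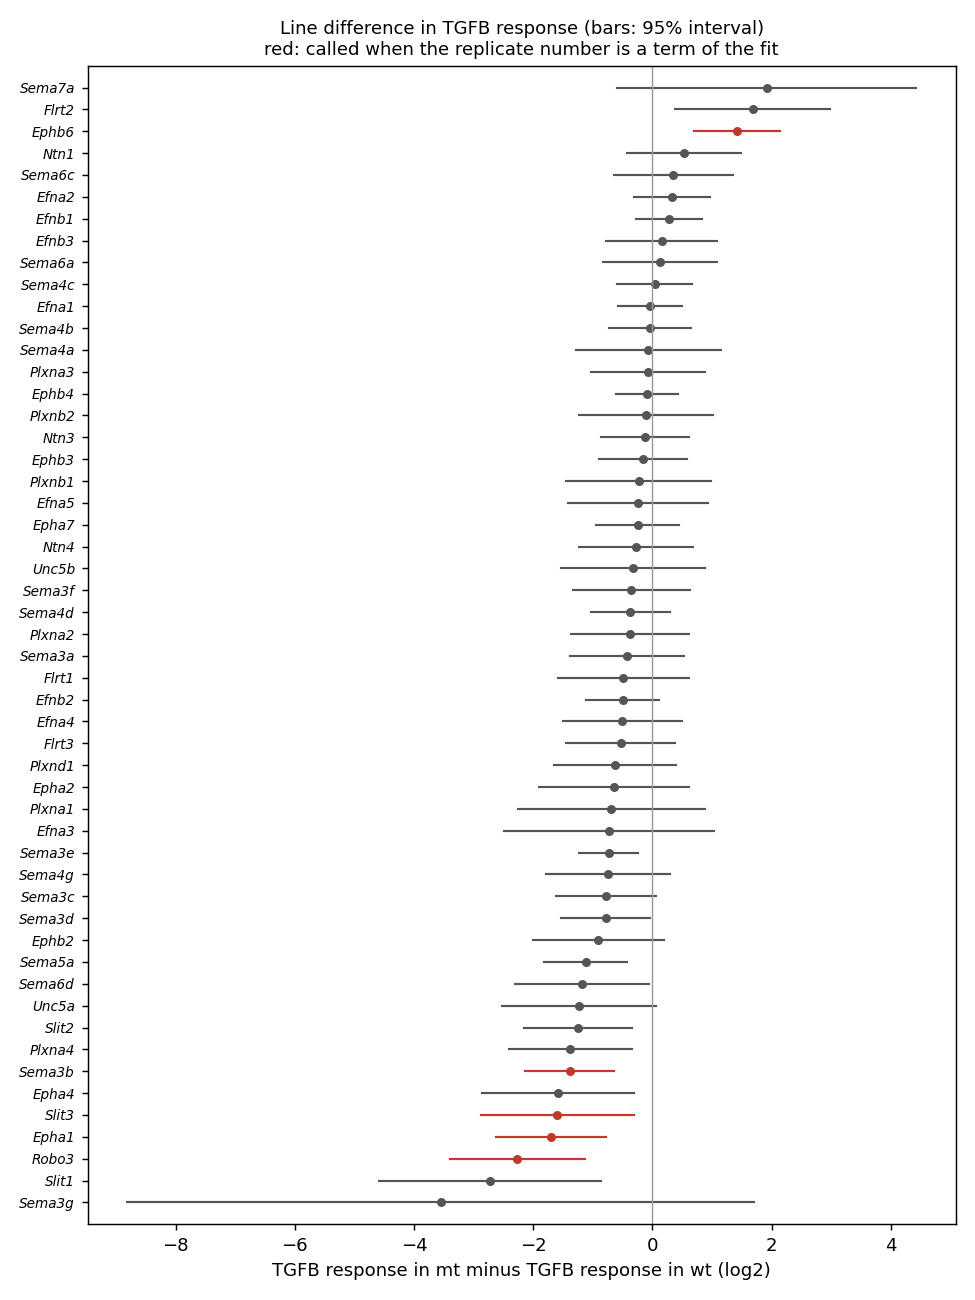
Difference between the lines in the log2 TGFB response (mt minus wt, horizontal axis) with its 95% interval for the 52 tested guidance genes that averaged 1 CPM or more, ordered by size. Red marks the 5 genes called when the replicate number was a term of the fit, and none was called without it.

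In vehicle, 5 guidance genes differed between the lines, 4 higher in mt (2.45% of all genes were) and 1 lower (1.13% of all genes were). Robo3 was higher in mt by 2.16 ± 0.44 (adjusted p = 0.02), Epha1 by 1.66 ± 0.35 (adjusted p = 0.025), Sema3c by 1.34 ± 0.32 (adjusted p = 0.041) and Sema3b by 1.15 ± 0.28 (adjusted p = 0.045). Ephb6 was lower in mt, the difference being -1.17 ± 0.27 (adjusted p = 0.034). The vehicle libraries of each of the 5 did not overlap between the lines. Those libraries also gave the calls, so this adds no support, and the share over all genes was not counted. The calls rested on few libraries. Without wt VEH replicate 1 or wt VEH replicate 2 the count was 0, without mt VEH replicate 1 it was 1, and without mt VEH replicate 2 it was 9. With the replicate number in the fit 14 passed (10 higher and 4 lower), where 10.3% of all genes did. The 9 added by that fit were Slit2 (adjusted p = 0.013), Sema3a (0.019), Flrt3 (0.02), Sema4d (0.038), Sema3e (0.039) and Epha4 (0.044), all higher in mt, and Ephb1 (0.0085), Sema6d (0.022) and Sema4c (0.043), all lower. The 2 mt vehicle libraries themselves lay far apart for Epha2 (549 and 190.3 CPM), Plxna1 (571 and 163 CPM) and Flrt2 (91.1 and 278 CPM).

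BMP2, at a dose that differs from those of the TGFB ligands, moved none of the 57 genes past the threshold in either line. In wt 0% of all genes passed, and in mt 0.0416% did. For the unadjusted p and for DESeq2 the shares of all genes were not counted, so those counts below have no background to be set against. At an unadjusted p under 0.05 there were 8 genes in wt and 7 in mt, and DESeq2 called 0 in wt and 1 in mt. The largest wt changes among those genes that averaged 1 CPM or more were Plxna2 (1.40 ± 0.37 (adjusted p = 0.91)), Epha4 (1.29 ± 0.50 (adjusted p = 0.91)), Robo3 (1.21 ± 0.43 (adjusted p = 0.91)), Ephb2 (1.06 ± 0.42 (adjusted p = 0.91)) and, downwards, Ephb6 (-0.79 ± 0.27 (adjusted p = 0.91)). Plxna2, an A plexin, lay at 2.88 and 4.99 CPM with vehicle and at 11.9 and 9.06 CPM with BMP2. In mt, Unc5b went from 325 and 165 CPM with vehicle to 862 and 469 CPM with BMP2, a change of 1.44 ± 0.46 (adjusted p = 0.94). It was the 1 gene that passed with the replicate number in the fit, where 0.232% of all genes did, with an adjusted p of 0.0039. The other mt changes were Ephb2 (1.02 ± 0.42 (adjusted p = 1)) upwards and Unc5a (-1.44 ± 0.55 (adjusted p = 1)), Sema5a (-0.89 ± 0.26 (adjusted p = 0.82)), Sema3b (-0.75 ± 0.28 (adjusted p = 1)) and Sema3e (-0.73 ± 0.19 (adjusted p = 0.59)) downwards. The test of the difference between the lines passed for 0 genes, as for 0% of all genes. It had 4 genes at an unadjusted p under 0.05 and 1 called by DESeq2, and Sema3e differed by -1.15 ± 0.26 (adjusted p = 0.99).

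TGFB1 and TGFB2 were given at the same dose and time, and the test of the difference between them was passed by no guidance gene in either line, nor by any gene of the table (0% of all genes in wt and 0% in mt). None reached an unadjusted p under 0.05. In the fit with the replicate number, 1 gene did so in each line. The median size of the difference among the 52 genes that averaged 1 CPM or more was 0.19 on the log2 scale in wt and 0.099 in mt. The largest was that of Unc5a in wt (-0.67 ± 0.47) and that of Epha1 in mt (0.64 ± 0.35). The 95% interval of the difference stayed within 2-fold for 26 of the 52 genes in wt and 32 in mt, and within 4-fold for 51 and 52.

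Other genes of these pathways were taken from 4 lists chosen with earlier results of these data known. Among 15 tested co-receptors and further receptors, 7 rose and 2 fell in wt, and 7 rose and 3 fell in mt. As shares these were 46.7% and 13.3% in wt and 46.7% and 20% in mt, beside the 13.5% and 12% of all genes in wt and the 10.7% and 12.7% in mt. Beside Nrp1, the rises with the smallest p were Sdc3, a heparan sulfate proteoglycan (4.55 ± 0.44 (adjusted p = 4e-05) in wt and 4.47 ± 0.43 (adjusted p = 2.8e-05) in mt), and Plxdc2 (2.35 ± 0.26 (adjusted p = 8.1e-05) and 1.51 ± 0.25 (adjusted p = 0.0011)). Sdc3 went from 0.854 and 0.798 CPM in wt vehicle to 15 to 24.2 CPM with TGFB. Beside Neo1, Plxdc1 fell in both lines (-2.33 ± 0.48 (adjusted p = 0.0037) and -1.86 ± 0.51 (adjusted p = 0.021)). DCC, the netrin receptor of axons, had at most 0.131 CPM in any library. Of 8 further ligands tested, 3 rose and 1 fell in wt, and 2 rose and 1 fell in mt. The shares were 37.5% and 12.5% in wt and 25% and 12.5% in mt, beside the same shares of all genes as above. Pgf and Vegfc, growth factors of the VEGF family, rose in both lines (Pgf 4.18 ± 0.61 (adjusted p = 0.00041) and 2.90 ± 0.53 (adjusted p = 0.0021), Vegfc 0.59 ± 0.18 (adjusted p = 0.033) and 1.99 ± 0.20 (adjusted p = 3.4e-05)). Rgma, a ligand of neogenin, fell in both (-0.81 ± 0.24 (adjusted p = 0.024) and -1.10 ± 0.24 (adjusted p = 0.0058)).

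Of 51 cytoplasmic effectors tested, 9 rose and 4 fell in wt, and 6 rose and 8 fell in mt. The shares of 17.6% and 7.84% in wt and 11.8% and 15.7% in mt were near those of all genes. Mical2, an actin-oxidizing enzyme of the family that acts below plexins, lay at 149 and 155 CPM in wt vehicle and at 457 to 537 CPM with TGFB, a change of 1.70 ± 0.26 (adjusted p = 0.00062). Mical2 in mt lay at 451 and 235 CPM with vehicle and at 495 to 549 CPM with TGFB, a change of 0.63 ± 0.25 (adjusted p = 0.088) that did not pass. The actin-binding gene Ablim1 rose in wt by 1.66 ± 0.25 (adjusted p = 0.00046), and its mt change of 0.69 ± 0.23 (adjusted p = 0.05) did not pass. Dpysl3, of the collapsin response mediator family, rose by 0.56 ± 0.19 (adjusted p = 0.046) in wt and by 1.25 ± 0.20 (adjusted p = 0.00078) in mt. Ngef, which encodes ephexin, an exchange factor that acts below EphA receptors, fell from 0.405 and 0.832 CPM to 0 to 0.0616 CPM in wt (adjusted p = 0.00076) and from 0.496 and 0.377 CPM to 0 to 0.0367 CPM in mt (adjusted p = 0.0056). Rnd1 fell in both lines, with log2 changes of -1.25 ± 0.20 (adjusted p = 0.00081) in wt and -0.96 ± 0.20 (adjusted p = 0.0051) in mt, as did Inppl1, with -0.92 ± 0.18 (adjusted p = 0.0024) and -1.14 ± 0.18 (adjusted p = 0.00067). With TGFB, 13.5% of all genes rose in wt and 10.7% in mt. Of the 7 shedding and processing enzymes, 3 rose (42.9%) and 0 fell in each line. They were Adam19, a metalloprotease (1.86 ± 0.31 (adjusted p = 0.0011) in wt and 1.65 ± 0.31 (adjusted p = 0.0026) in mt), Mmp14 (2.12 ± 0.37 (adjusted p = 0.0014) and 1.54 ± 0.36 (adjusted p = 0.0087)) and Bmp1 (2.24 ± 0.50 (adjusted p = 0.006) and 1.58 ± 0.48 (adjusted p = 0.033)).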

How the data were processed

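Poly(A) RNA of 16 libraries was sequenced, and the authors aligned reads with TopHat or TopHat2 to mm9, per the submitters' processing notes. The authors deposited a read count and an RPM value (the count scaled to library depth) for each entry in 2 tables, 1 for each replicate number. The deposited RPM equalled the count over the column total to within 2.9e-11, so counts were used. The counting program and its use of strand are not given in the sources used here. Of the entries, 2 without a gene name were left out. The set of genes, though defined by symbol, and the lists were chosen with earlier results of these data known.

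Counts of all 16 libraries were fitted together in edgeR 4.0.16 (R 4.3.3, limma 3.58.1) with filterByExpr, TMM scaling and 8 group means (8 residual degrees of freedom, common biological coefficient of variation 0.274, or 0.17 with the replicate number in the fit). Tests were robust quasi-likelihood F tests, adjusted by Benjamini-Hochberg over 16835 genes and called at 0.05. Errors are SE, the log2 change over the square root of F. CPM use TMM library sizes. The floor for a count of 0 was 3 reads, which covers counting error only. Levels per kilobase use merged exons of GENCODE vM21 on GRCm38. Values per library are given for called genes that averaged 1 CPM or more, and for partners of them.

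Replicate numbers were checked for pairing. Deviations of same-numbered libraries from their group means correlated above 0.1 in 28 of 28 pairs of groups (0.16 to 0.76, median 0.51), and each number has its own table. Alternatives were DESeq2 1.42.0, its size factors, no low-count filter, the replicate number as a term, only the groups compared, each TGFB ligand alone, each library left out and the 4 mt libraries of replicate 1 left out together. Figures used matplotlib.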

Additional observations from a re-analysis of the deposited data

Results flagged for a closer look

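For 2 guidance genes every same-numbered pair of TGFB and vehicle libraries moved up in wt and down in mt. Each vehicle library was set against both the TGFB1 and the TGFB2 library of its number, so the pairs are not independent. The share of all genes with this pattern was not counted. Epha1 differed between the lines in its TGFB response by -1.70 on the log2 scale (adjusted p = 0.16, and 0.015 with the replicate number in the fit). Its reads overlap those of Zyx, and the effect of that overlap on the difference was not tested. Sema3c differed by -0.773 (adjusted p = 0.71, and 0.19 with the replicate number in the fit), and its vehicle and TGFB ranges overlapped in both lines.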

How the results depend on the processing

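None of the 59 single-gene calls changed direction under the alternatives run. Those alternatives reuse the libraries that gave the calls, so this adds no independent support. Sema3e, higher in mt vehicle when the replicate number was in the fit, had a line difference of -0.08 when averaged over the 4 treatments. The wt change of Unc5a, which did not pass, was 0.31 with TGFB1 alone and -0.36 with TGFB2 alone. Counts of guidance genes called stayed within 1.5 times the main count in 91 cases and moved beyond it in 19. The 91 include comparisons with a main count of 0 that stayed at 0, so they do not measure how stable the other counts were. With the replicate number as a term, the pairing gave 35 calls for TGFB in wt and 40 for TGFB in mt. It gave 1 for BMP2 in mt, 14 for mt against wt in vehicle and 5 for the line difference in TGFB response. Beside the single genes named above it changed no other call. DESeq2 called 8 guidance genes for mt against wt, 1 for BMP2 in mt, 5 for the line difference in TGFB response and 1 for that in BMP2 response. Its calls over all genes were not counted. For mt against wt in vehicle, fitting only the groups compared gave 0. Averaging over the 4 treatments gave 19, but that sets all libraries of one line against all of the other. It is a different comparison and not a check of the vehicle count. The shares of all genes were not counted for these fits, nor for those without a filter or with 1 library left out. Without a low-count filter 1 gene was called for the line difference in TGFB response. With 1 library left out, calls ranged from 17 to 27 for TGFB in wt, 17 to 25 for TGFB in mt, 0 to 9 for mt against wt and 0 to 4 for the line difference in TGFB response. A lone library was then assumed to vary like the other groups. Every leave-one-out fit kept 14 of the 29 wt calls, 13 of the 25 mt calls and 0 of the 5 calls between lines. Among single genes, 136 values fell short of the threshold under an alternative. With 2 libraries a group, genes under 1 CPM rest on few reads.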
